A study of Homo sapiens with 17 samples.

Results

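The replication-dependent histone genes are the clustered genes that supply linker histone H1 and the core histones H2A, H2B, H3 and H4 when a cell copies its DNA. They were taken from an RNA-Seq table of DMG cells as the genes whose current symbol is H1-1 to H1-5, or H2AC, H2BC, H3C or H4C followed by a number. This gave 66 of the 60664 genes in the table, namely 5 H1, 15 H2A, 18 H2B, 13 H3 and 15 H4 genes. A further 2 symbols of this form were not matched to an entry of the table. Tests were run on the 33 of them whose mean over the 12 libraries reached 10 normalized counts, and as they were selected on these same libraries the mean itself is no result. By class, 3 H1, 6 H2A, 12 H2B, 5 H3 and 7 H4 genes passed. Just inside the limit were H3C12 with a mean of 10.4, H2AC20 with 10.5, H2BC26 with 10.5 and H4C4 with 11.04. Just outside it were H3C2 with 7.98, H1-5 with 7.43, H2BC17 with 7.05 and H4C15 with 6.64. Because AZD5153 libraries contributed to this mean, the counts below are also given for the 22 genes that reached a mean of 10 in the DMSO libraries alone.

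The cells were SF8628, an established line of diffuse midline glioma (DMG) that carries the K27M substitution in histone H3.3, and this 1 line was the only model. They were treated with the vehicle DMSO or with AZD5153 at 1 μM, a small molecule that occupies both bromodomains of a BET protein at once, for 24 or 48 h. Each of the 4 groups had 3 replicate libraries, and nothing in the labels says whether these came from separate cultures, so p-values measure only the spread between the libraries, which may be technical. The K27M allele was shared by all groups. The comparisons asked which histone genes differed between AZD5153 and DMSO at each time, whether that difference changed with time, and how the classes and gene clusters compared.

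A library had 15759148 to 27335220 reads on genes (median 20737337), so 1 normalized count stands for about 1 read. All histone genes together took 0.00921% to 0.0128% of the normalized counts of a DMSO library and 0.0857% to 0.121% of those of an AZD5153 library. Of 12 glial and midline glioma markers, 6 had a mean of at least 10. VIM, NES, CD44 and SOX2 were among these, whereas the midline glioma markers OLIG1, OLIG2 and NKX2-2 were listed at 0 and PDGFRA and SOX10 had means of 2.66 and 1.01. The summed level of these markers ran from 28347 to 37658 in DMSO and from 26329 to 28298 in AZD5153 at 24 h, and from 22187 to 22426 and from 22057 to 23643 at 48 h. Of 5 microglia and leukocyte markers 0 reached a mean of 10, and their sum stayed at or under 10.6 in every library. The 3 endothelial markers, 2 of them tested, summed to 324 to 636 in DMSO and 50.0 to 67.0 in AZD5153, with CDH5 at 0. The 3 neuronal markers, 2 of them tested, summed to 701 to 884 in DMSO and 745 to 922 in AZD5153. The 4 mesenchymal markers, all tested and led by COL1A1, summed to 58429.7 to 85436 in DMSO and 19819 to 27124 in AZD5153. The endothelial and mesenchymal sums moved with treatment, and their part in the histone results was not tested.

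Most mRNAs end in a poly(A) tail, but the mRNAs of these histone genes normally end just after a short stem-loop, which is bound by the stem-loop binding protein SLBP and cut by a processing complex that includes the U7 small nuclear RNP. Their transcription, organised by NPAT in nuclear histone locus bodies, and the stability of their mRNA rise in S phase and fall when DNA synthesis stops. Several human histone genes are known to give longer, polyadenylated transcripts as well, above all in cells that have left the cell cycle. Whether the RNA was selected for poly(A) tails or depleted of ribosomal RNA is not given in the sources used here, and this choice decides which of these transcripts a library can hold.

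The stem-loop is the feature that sets these genes apart in sequence, and it is shown first for genes that lead the results below. A stem-loop that differed from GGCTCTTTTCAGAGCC at no more than 3 of its 16 bases was present within 200 bases after the stop codon in 66 of 66 histone genes, at a median of 36 bases, and in 11 of 4057 other coding genes on the same chromosomes (0.271%). The other coding genes still included histone genes outside this set, such as H1-6. The match was exact in 38 of the 66 histone genes. The sequences were read from hg38 on the strand of each gene, with the 16 bases of the stem and loop in capitals and 5 flanking bases on each side in lower case.
H2BC21: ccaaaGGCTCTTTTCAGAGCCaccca
H1-2: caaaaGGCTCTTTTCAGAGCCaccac
H2AC6: ccaaaGGCTCTTTTCAGAGCCcccct
H2BC5: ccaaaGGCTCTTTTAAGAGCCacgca
H2BC12: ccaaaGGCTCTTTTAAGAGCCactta
H3C6: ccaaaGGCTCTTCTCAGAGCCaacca
H4C8: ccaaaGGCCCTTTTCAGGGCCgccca
H4C9: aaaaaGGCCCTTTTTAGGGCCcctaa
The capitals lie at chr1:149886188-149886203, chr6:26055744-26055759, chr6:26124669-26124684, chr6:26158587-26158602, chr6:27146366-27146381, chr6:26225596-26225611, chr6:26285131-26285146 and chr6:27139654-27139669, in the 3′ UTR of each gene. H2BC21, H1-2 and H2AC6 carried the same 16 bases, whereas the stem-loop of H4C8 differed from them at 2 bases and that of H4C9 at 3. AATAAA, the commonest signal for adding a poly(A) tail, occurred after the stem-loop and within 1000 bases of the stop codon in 29 of 66 histone genes (43.9%). In the other coding genes the search began at the stop codon itself, a longer stretch, and 62.4% had it. In the annotation, 15 of the 33 tested genes had a model that ends more than 400 bases past the stop codon, against 2 of the 33 that were not tested.

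The promoters differed by class. Of 66 genes, 61 matched an entry of the RefSeq promoter table on GRCh38.p14, which holds 250 bases before and 50 after each start. On either strand, TATAAA was found in 40 of the 61 (65.6%) against 11.5% of all 35116 promoters, and CCAAT in 51 (83.6%) against 34.6%. CCAAT was in all 48 matched promoters of H1, H2A, H2B and H3 genes and in 3 of 13 of H4 genes. The octamer ATTTGCAT was in 11 of 14 H2A and 14 of 18 H2B promoters, 1 of 11 H3 promoters and none of the 5 H1 and 13 H4 promoters, against 1.77% of all promoters. TTTCGCGC or TTTGGCGC, both forms of the E2F motif, was in 12 of 61 (19.7%) against 1.15%. The 130 bases before the start are shown for a strongly raised and a less raised H2B gene and for the leading H1 and H4 genes, with the TATA, CCAAT and octamer matches on either strand in capitals.
H2BC21: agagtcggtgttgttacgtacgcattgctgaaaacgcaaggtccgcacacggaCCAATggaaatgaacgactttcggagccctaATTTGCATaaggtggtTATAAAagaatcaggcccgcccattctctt
H2BC12: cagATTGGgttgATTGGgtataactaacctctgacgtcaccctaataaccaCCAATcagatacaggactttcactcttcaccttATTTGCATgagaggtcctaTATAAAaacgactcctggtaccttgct
H1-2: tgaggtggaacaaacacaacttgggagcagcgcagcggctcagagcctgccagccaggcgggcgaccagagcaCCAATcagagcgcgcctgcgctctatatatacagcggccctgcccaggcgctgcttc
H4C8: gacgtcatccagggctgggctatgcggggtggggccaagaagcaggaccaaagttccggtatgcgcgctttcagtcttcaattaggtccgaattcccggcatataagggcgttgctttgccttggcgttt
They lie at chr1:149886683-149886812 (minus strand), chr6:27146859-27146988 (minus strand), chr6:26056471-26056600 (minus strand) and chr6:26285535-26285664 (minus strand). H2BC21 and H2BC12, whose log2 fold changes are given below, both had CCAAT, the octamer and TATAAA in this order, H1-2 had CCAAT, and H4C8 had none of them. A match in letters is a description, and no match says only that these letters are not in this window.

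In AZD5153, the summed normalized counts of every class stood above those in DMSO at both times. All 66 genes together summed to 1829, 1792 and 1819.6 in DMSO and 18114, 18395 and 18451 in AZD5153 at 24 h. At 48 h the sums were 2164, 2212 and 2404 in DMSO and 25271, 25357 and 25294 in AZD5153. The ratio of the group means was 10.1 at 24 h and 11.2 at 48 h, and no AZD5153 library overlapped a DMSO library. These are values of whole cultures, in which more cells with histone mRNA and more mRNA per cell cannot be told apart.

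By class, the sum of H1 had the largest ratio and that of H3 the smallest. H1 went from 204 ± 19.0 (SD, n = 3) to 2944 ± 259.9 at 24 h and from 333 ± 15.6 to 4512 ± 96.2 at 48 h, ratios of 14.5 and 13.6. H2B, the class with the most counts, went from 887 ± 23.9 to 9959.6 ± 190.2 and from 1017 ± 77.6 to 12838 ± 352, ratios of 11.2 and 12.6. H4 went from 301 ± 38.6 to 2356 ± 152 and from 305 ± 16.5 to 3275 ± 135, ratios of 7.82 and 10.7. The H4 ratio was thus higher at 48 than at 24 h, unlike that of H3. H2A went from 349 ± 27.8 to 2573 ± 69.3 and from 505 ± 16.4 to 4209 ± 104, ratios of 7.38 and 8.34. H3 had the fewest counts, 72.6 ± 21.1 against 487 ± 26.3 at 24 h and 100.3 ± 16.3 against 473 ± 10.2 at 48 h, ratios of 6.71 and 4.72. At 24 h H2A made up 19.2% of all histone counts in DMSO and 14.0% in AZD5153, H3 4.00% and 2.66%, and H1 11.2% and 16.1%. These shares, and those of single genes below, are of counts and are not corrected for transcript length. Without H1-2 the log2 ratio of the H1 sum at 48 h was 1.93, against 3.76 with it. A sum over chosen genes carries no p-value here. The sums follow their most abundant genes, and single genes gave another order. Among genes with a mean of 10 in DMSO the median log2 fold changes at 24 and 48 h were 3.98 and 4.06 in H2B (10 genes), 2.97 and 3.18 in H2A (3 genes), 2.92 and 2.26 in H3 (3 genes) and 2.17 and 2.84 in H4 (5 genes), and H1-2, the 1 such H1 gene, had 3.86 and 3.81.

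**Figure D1:**
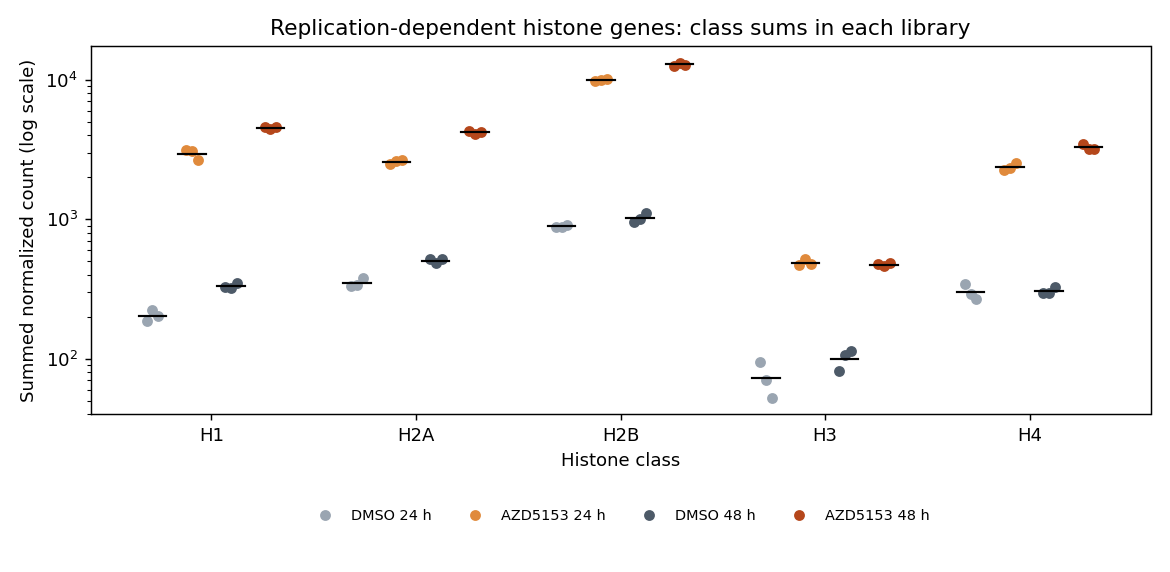
Summed normalized counts of each histone class (log axis) in each of the 12 libraries, by treatment and time; points are libraries and bars are means of 3. In every class the AZD5153 points lie above the DMSO points of the same time, with ratios of the means from 4.72 (H3 at 48 h) to 14.5 (H1 at 24 h).

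Gene by gene, 33 of the 33 tested histone genes were higher in AZD5153 at 24 h and 0 were lower (limma on log2 of the normalized count plus 1, Benjamini-Hochberg adjustment over 15599 genes at 0.05), where 33.9% of all tested genes were called higher and 34.6% lower. At 48 h 31 were higher and 0 lower, where 33.1% of all tested genes were called higher and 33.9% lower. The median log2 fold change of the tested histone genes was 3.16 at 24 h and 2.97 at 48 h, against 0.00037 and 0.0011 over all tested genes. The smallest and largest values were 1.50 and 5.72 at 24 h and 0.91 and 5.49 at 48 h. Every AZD5153 library lay above every DMSO library for 33 of 33 tested histone genes at 24 h, a pattern shown by 34% of all tested genes, and for 32 of 33 at 48 h, shown by 37.5%. Of the 22 genes with a mean of 10 in DMSO alone, 22 were called higher at 24 h and 22 at 48 h, with medians of 3.07 at both times. A gene that reached the limit only through AZD5153 had to differ, so the count over all 33 is a description. These 11 are H1-3, H1-4, H2AC8, H2AC13, H2AC20, H2BC7, H2BC26, H3C12, H3C13, H4C4 and H4C5, and the values, ranks and adjusted p of these genes carry that selection wherever they are given. No tested histone gene had a negative log2 fold change at either time, and on the recovered reads edgeR and DESeq2 each called 33 higher at 24 h, 32 at 48 h and 0 lower. Scaling the libraries to equal totals moved the median of all genes to −0.12 at 24 h and −0.17 at 48 h, and the number of histone genes called higher stayed at 33 and 31.

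**Figure D2:**
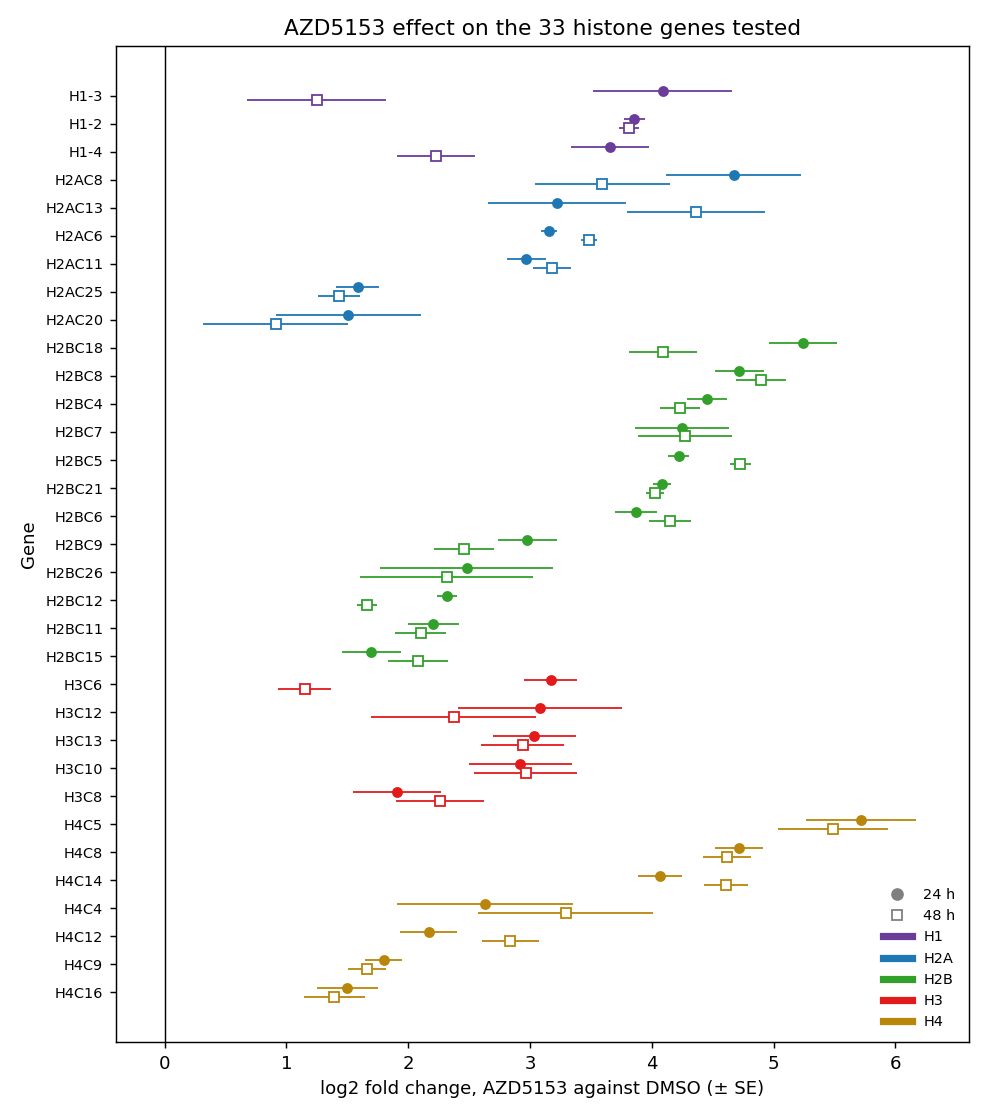
Log2 fold change of AZD5153 against DMSO with its standard error for the 33 tested histone genes, grouped by class and ordered by the value at 24 h (filled circles, with 48 h as open squares). All points lie right of 0, from 0.91 (H2AC20 at 48 h) to 5.72 (H4C5 at 24 h), both genes that reached the minimum mean only through AZD5153.

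H1 genes encode the linker histones that bind DNA between nucleosomes, and 1 gene made up nearly all of the class. H1-2 (chr6:26055740-26056470, minus strand) supplied between 94.9% (DMSO at 48 h) and 98.6% (AZD5153 at 48 h) of the H1 counts. It had 170.2, 214 and 199 in DMSO and 2982, 2931 and 2545 in AZD5153 at 24 h. At 48 h it had 307, 305 and 336 in DMSO and 4494, 4345 and 4503 in AZD5153. All AZD5153 libraries were thus far above all DMSO libraries, by 14.5-fold and 14.1-fold, and the log2 fold changes were 3.86 (SE 0.09, limma adjusted p = 7.3e-15) and 3.81 (SE 0.09, adjusted p = 1e-14). Per kilobase of all annotated exons, which can exceed the transcript in use, it had the highest level of all 66 genes in AZD5153, 3857 at 24 h and 6084 at 48 h. H1-4 was much lower, with 3.38, 6.41 and 3.57 in DMSO and 72.4, 65.5 and 60.0 in AZD5153 at 24 h. At 48 h H1-4 had 7.21, 6.21 and 6.48 in DMSO and 32.8, 31.5 and 40.2 in AZD5153, so the 2 treatments remained apart. Its log2 fold changes were 3.66 (adjusted p = 4.9e-08) and 2.23 (adjusted p = 1.4e-05).

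H1-3 changed most between the times within this class. It had 5.64, 0.712 and 0 in DMSO and 37.5, 51.2 and 26.9 in AZD5153 at 24 h, and 9.91, 11.5 and 6.48 in DMSO and 24.6, 18.5 and 26.5 in AZD5153 at 48 h. The DMSO libraries at 24 h held 5, 1 and 0 reads of it, so the log2 fold change of 4.09 (SE 0.57, limma adjusted p = 1e-05) rests on few reads on the DMSO side. At 48 h the groups did not overlap, but the log2 fold change of 1.25 did not pass the test in limma (adjusted p = 0.065), whereas edgeR (adjusted p = 0.028) and DESeq2 (adjusted p = 0.012) called it on the recovered reads. Without DMSO replicate 1 at 24 h the adjusted p at 48 h was 0.014, and without DMSO replicate 3 at 24 h it was 0.029, as these libraries enter the shared estimate of the spread. H1-5 and H1-1 were under the limit, with means of 7.43 and 0.271 over the 12 libraries.

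H2A pairs with H2B in the nucleosome, and here H2AC6 held most of the class. H2AC6 (chr6:26124145-26139116, plus strand) had 199.5, 190.0 and 201.48 in DMSO and 1767, 1731 and 1789 in AZD5153 at 24 h. At 48 h it had 261, 283 and 285 in DMSO and 3140.4, 3085 and 3083 in AZD5153. Replicates were close and the treatments far apart, with 8.95-fold and 11.2-fold higher means and log2 fold changes of 3.16 (SE 0.06, limma adjusted p = 3.7e-15) and 3.49 (SE 0.06, adjusted p = 1.2e-15). H2AC6 made up 56.5% of the H2A counts in DMSO and 68.5% in AZD5153 at 24 h, and 54.8% and 73.7% at 48 h. H2AC25, on the long arm of chromosome 1 away from the main cluster, had the opposite course in share, 23.3% against 9.36% at 24 h and 30.7% against 9.93% at 48 h. Its own counts were higher in AZD5153, from 57.5, 91.1 and 95.4 to 217, 239.6 and 266 at 24 h and from 178, 140.1 and 146 to 443, 366 and 445 at 48 h, with log2 fold changes of 1.58 and 1.43 (adjusted p = 7.5e-07 and 2.3e-06).

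H2AC11 had 58.6, 39.9 and 57.9 in DMSO and 370.1, 457 and 406 in AZD5153 at 24 h, and 54.0, 49.6 and 61.5 in DMSO and 522, 467 and 527 in AZD5153 at 48 h. The groups were well apart, with log2 fold changes of 2.97 and 3.18. H2AC8 and H2AC13 reached the limit only through AZD5153. Over the tested genes H2AC8 had the largest H2A value at 24 h (4.67, SE 0.56, from 0 to 6.24 counts in DMSO and 68.4 to 102 in AZD5153), and H2AC13 the largest at 48 h (4.36, SE 0.57, 0 to 4.32 against 52.0 to 65.2). H2AC20 had the smallest, 1.51 at 24 h (adjusted p = 0.034), where the groups lay at 6.41 to 8.02 and 17.4 to 28.7. This call was lost with no minimum mean (adjusted p = 0.082) and without DMSO replicate 2 (1.45, adjusted p = 0.077), AZD5153 replicate 2 (1.32, adjusted p = 0.11) or AZD5153 replicate 3 (1.54, adjusted p = 0.066) at 24 h. At 48 h H2AC20 did not pass (0.91, SE 0.59, adjusted p = 0.19), although it did with quantile normalization (1.67, adjusted p = 0.022). Its groups overlapped at 0.887 to 6.48 in DMSO and 3.26 to 16.4 in AZD5153. These stood for 5, 1 and 6 reads in DMSO and 18, 3 and 7 in AZD5153, so the value of 0.91 depends strongly on single libraries.

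H2B held 48.9% of all histone counts in DMSO and 54.4% in AZD5153 at 24 h, and it was the class with the most tested genes, 12. H2BC21 (chr1:149884459-149886682, minus strand) had the most counts of all histone genes in AZD5153 at both times, with 214, 207 and 199 in DMSO and 3558, 3446 and 3549.5 in AZD5153 at 24 h. At 48 h it had 302, 352 and 382 in DMSO and 5482, 5813 and 5556 in AZD5153. The increase was 17.02-fold and 16.3-fold, far beyond the spread, with log2 fold changes of 4.08 (SE 0.08, limma adjusted p = 1.4e-15) and 4.03 (SE 0.08, adjusted p = 1.2e-15). H2BC5 had 105, 92.5 and 104 in DMSO and 1899, 1847 and 1924 in AZD5153 at 24 h. At 48 h it had 106, 121 and 98.3 in DMSO and 2767, 2930.3 and 2952 in AZD5153, so that it had moved from 10.7% to 22.5% of the H2B counts. Its log2 fold changes were 4.22 (adjusted p = 3.9e-15) and 4.73 (adjusted p = 1.2e-15).

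H2BC12 was the H2B gene with the most counts in DMSO at 24 h and the one with the smallest log2 fold change at 48 h. It had 349, 378 and 407 in DMSO and 1789, 1948 and 1914 in AZD5153 at 24 h. At 48 h it had 299, 321 and 359.6 in DMSO and 998, 1083 and 1018 in AZD5153, so that it was higher with AZD5153 at both times but lower at 48 than at 24 h. Its share of the H2B counts was 42.6% in DMSO and 18.9% in AZD5153 at 24 h, and 32.1% and 8.05% at 48 h. The log2 fold changes were 2.31 (SE 0.08, limma adjusted p = 1.3e-12) and 1.66 (SE 0.08, adjusted p = 5.8e-11). On the same scale of annotated exons, H2BC12 had the highest level of all 66 genes in DMSO, 764 at 24 h and 659.6 at 48 h, ahead of H4C9 with 497 at 24 h and H1-2 with 432 at 48 h. In AZD5153 at 24 h it stood at 3806, next to H1-2, and at 48 h H1-2, H2BC5 (3348) and H2BC21 (2526) were above its 2087.

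The largest H2B value at each time came from a gene with little signal in DMSO, though other such genes changed less. H2BC18 had 7.89, 16.4 and 25.9 in DMSO and 554, 636 and 635 in AZD5153 at 24 h, and 28.8, 26.6 and 37.8 in DMSO and 534, 530.2 and 552 in AZD5153 at 48 h. This was the largest H2B value at 24 h, with a log2 fold change of 5.24 (SE 0.28, limma adjusted p = 1.3e-10), but its gene model overlaps others whose values follow below. H2BC8 had 19.2, 26.3 and 19.6 in DMSO and 578, 558 and 641 in AZD5153 at 24 h, and 22.5, 27.5 and 45.3 in DMSO and 915, 959 and 933 in AZD5153 at 48 h. It had the largest H2B value at 48 h, 4.90 (SE 0.20, adjusted p = 6.8e-12). H2BC4, H2BC6 and H2BC7 had log2 fold changes between 3.87 (H2BC6 at 24 h) and 4.45 (H2BC4 at 24 h). H2BC4, H2BC6, H2BC7, H2BC8 and H2BC10 encode 1 identical protein of 126 residues, and their counts summed to 74.9 ± 10.8 in DMSO and 1536 ± 68.6 in AZD5153 at 24 h, and to 107 ± 13.9 and 2311 ± 62.9 at 48 h (SD, n = 3). The smallest H2B value at 24 h was that of H2BC15, 1.70 (adjusted p = 1.4e-05), with 49.6, 34.2 and 25.9 in DMSO and 97.9, 122 and 133 in AZD5153. H2BC9, H2BC11 and H2BC26 had 2.98, 2.21 and 2.48 at 24 h and 2.46, 2.10 and 2.31 at 48 h.

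H3 carries the lysine that is altered in DMG, but the K27M allele of these cells lies in a gene outside this set. The replication-dependent H3 genes were the lowest class and no single gene led it. H3C10 had 22.5, 21.4 and 5.35 in DMSO and 85.8, 130.03 and 126 in AZD5153 at 24 h, and 15.3, 26.6 and 40.0 in DMSO and 202, 188 and 228 in AZD5153 at 48 h. The groups were apart at both times, with log2 fold changes of 2.92 (SE 0.42, limma adjusted p = 1.5e-05) and 2.97 (SE 0.42, adjusted p = 1.2e-05). H3C6 had 11.3, 19.9 and 14.3 in DMSO and 142, 143 and 137 in AZD5153 at 24 h, and 45.0, 50.5 and 43.2 in DMSO and 129, 90.2 and 95.8 in AZD5153 at 48 h. Here the DMSO level was higher at 48 than at 24 h while the AZD5153 level was lower, and the log2 fold change went from 3.17 (SE 0.22, adjusted p = 2.9e-09) to 1.15 (SE 0.22, adjusted p = 0.00023). H3C8 had the smallest H3 value at 24 h, 1.91 (adjusted p = 0.00021), with 34.9, 15.7 and 18.7 in DMSO and 95.2, 78.8 and 80.8 in AZD5153. Of the 13 genes, 10 encode 1 protein of 136 residues, known as H3.1, and H3C13, H3C14 and H3C15 encode a protein that differs at 1 residue, known as H3.2. The 10 genes summed to 62.2 ± 18.2 in DMSO and 389.5 ± 21.5 in AZD5153 at 24 h, and to 92.7 ± 16.7 and 396 ± 18.6 at 48 h. The other 3 summed to 10.4 ± 5.07 and 97.5 ± 20.6 at 24 h, and to 7.59 ± 0.508 and 76.6 ± 9.45 at 48 h.

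H4 genes differ in position and mRNA but hardly in product, as 14 of the 15 encode 1 identical protein of 103 residues, the exception being H4C7, which was listed at 0 in all libraries. In DMSO, H4C9 held most counts of the class, 65.5% at 24 h and 51.7% at 48 h, and in AZD5153 H4C8 had the largest share, 38.9% and 51.6%. Per kilobase of exon H4C9 stayed above H4C8 in AZD5153, with 1714 against 424 at 24 h and 1261 against 781 at 48 h. The length used is that of all annotated exons, 2163 bases for H4C8 and 397 for H4C9, so this order would not hold if the reads of H4C8 came from a short transcript that ends at the stem-loop, and the transcript form is not known. H4C8 had 28.2, 51.2 and 26.7 in DMSO and 822, 926 and 1005 in AZD5153 at 24 h, and 77.5, 73.6 and 55.1 in DMSO and 1754, 1660.2 and 1655 in AZD5153 at 48 h. The means differed 25.9-fold and 24.6-fold, with log2 fold changes of 4.72 (SE 0.20, limma adjusted p = 6.5e-12) and 4.62 (SE 0.20, adjusted p = 9.2e-12). H4C9 had 251, 165 and 176 in DMSO and 649, 612 and 779.7 in AZD5153 at 24 h, and 150.4, 142 and 180.3 in DMSO and 545, 438 and 519 in AZD5153 at 48 h. It was higher in AZD5153 by 3.45-fold and 3.18-fold only, with log2 fold changes of 1.80 and 1.66 (SE 0.15, adjusted p = 3.6e-08 and 9.2e-08). H4C5, which reached the limit only through AZD5153, had log2 fold changes of 5.72 at 24 h (SE 0.45) and 5.49 at 48 h. Among genes with a mean of 10 in DMSO the largest values were those of H2BC18 at 24 h (5.24) and H2BC8 at 48 h (4.90). H4C5 had 0, 2.14 and 3.57 in DMSO, which stood for 0, 3 and 4 reads, and 131, 104 and 148 in AZD5153 at 24 h, and 2.70, 6.21 and 3.24 in DMSO and 221, 226 and 203 in AZD5153 at 48 h. H4C14 had 25.9, 32.7 and 23.2 in DMSO and 489, 511 and 412 in AZD5153 at 24 h, and 17.1, 26.6 and 25.9 in DMSO and 617, 552 and 569.8 in AZD5153 at 48 h, and 92.2% of the 150-base windows of its transcripts are shared with other genes. H4C15, a near-identical copy with 100% of its windows shared, held 10, 11 and 9 reads in AZD5153 at 24 h, against 365, 499 and 337 for H4C14, and how reads of shared sequence were assigned is not given in the sources used here. H4C16, alone on chromosome 12, had the smallest H4 values, 1.50 and 1.39, with 21.4, 17.8 and 21.4 in DMSO and 53.6, 57.3 and 66.1 in AZD5153 at 24 h.

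**Figure D3:**
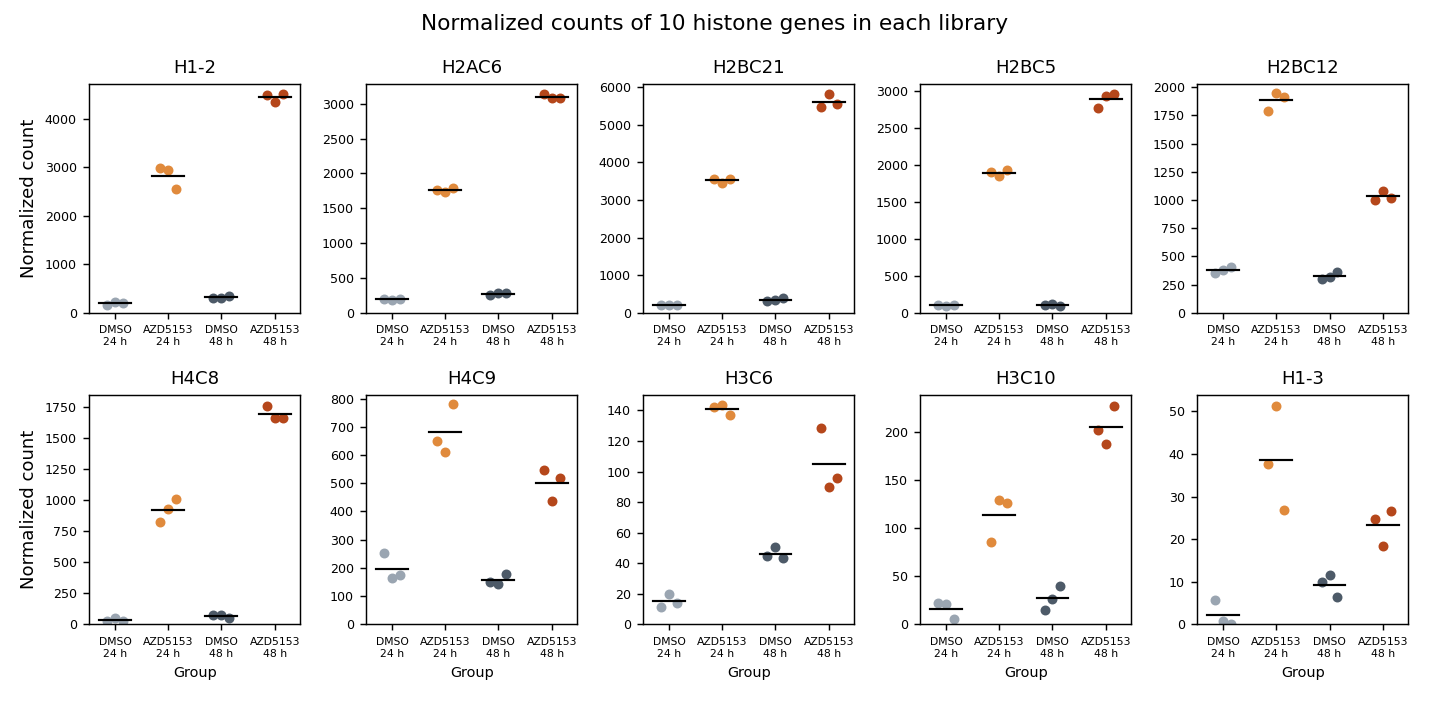
Normalized counts of 10 histone genes in each of the 12 libraries (points), with the mean of 3 (bars), each panel on its own linear axis from 0. H1-2, H2AC6, H2BC21, H2BC5, H4C8 and H3C10 were higher at 48 than at 24 h in AZD5153, whereas H2BC12 went from 1884 ± 84.2 to 1033 ± 44.7.

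Most histone genes sit in clusters, and the largest, on chromosome 6, holds 54 of the 66 genes in 3 blocks (genes under 300000 bases apart, GENCODE 44 on GRCh38). The first block (chr6:25723397-26285638) has 33 genes, the second (chr6:27125897-27147562) 5 and the third (chr6:27807479-27893891) 16. On chromosome 1 there are 9 genes at chr1:149782689-149887965 and 2 at chr1:228434777-228463104, and H4C16 lies at chr12:14767999-14771131. The chromosome 6 genes summed to 1472, 1406 and 1437 in DMSO and 13090.0, 13332 and 13398 in AZD5153 at 24 h, and to 1605, 1629 and 1769 in DMSO and 18026, 17896 and 17989.6 in AZD5153 at 48 h. The chromosome 1 genes summed to 336, 368 and 361 in DMSO and 4970.3, 5006 and 4988 in AZD5153 at 24 h, and to 542, 558 and 608 in DMSO and 7191, 7382 and 7251 in AZD5153 at 48 h. The ratios were 9.23 and 10.8 for chromosome 6 and 14.1 and 12.8 for chromosome 1, where H2BC21 alone supplied most counts.

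The ratios of the blocks were further apart than those of the 2 chromosomes. The first block of chromosome 6 went from 678 ± 18.3 (SD, n = 3) to 9668 ± 68.3 at 24 h and from 995 ± 21.1 to 15173 ± 65.2 at 48 h, ratios of 14.3 and 15.3. The second, with H2BC11, H2AC11, H4C9 and H2BC12 tested, went from 676 ± 44.4 to 3203 ± 166 and from 569 ± 51.5 to 2173 ± 41.3, ratios of 4.74 and 3.82. It was the only block whose AZD5153 sum was lower at 48 than at 24 h. The third went from 84.2 ± 19.9 to 402 ± 60.2 and from 104 ± 21.4 to 625 ± 23.9, ratios of 4.78 and 6.01. On chromosome 1 the larger block had ratios of 17.5 and 16.6 and the smaller, with H2AC25 and H2BC26, 3.05 and 2.78. At 24 h the log2 fold changes of the genes with a mean of 10 in DMSO ran from 1.91 to 4.72 in the first block of chromosome 6 (10 genes, median 3.86), from 1.80 to 2.97 in the second (4 genes, median 2.26) and from 1.70 to 2.92 in the third (3 genes, median 2.17).

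Neighbours that share a promoter region could differ widely in level. There were 13 head-to-head pairs with starts under 1000 bases apart, mostly an H2A and an H2B gene. H2BC21 and H2AC20 start 235 bases apart, and in AZD5153 at 48 h they had 2526 and 17.3 normalized counts per kilobase of exon. H2BC4 and H2AC6 start 245 bases apart and had log2 fold changes of 4.45 and 3.16 at 24 h and 4.23 and 3.49 at 48 h. H2BC11 and H2AC11, 247 bases apart, had 2.21 and 2.97 at 24 h and 2.10 and 3.18 at 48 h. H2BC8 and H2AC8, 232 bases apart, were close at 24 h (4.72 and 4.67) and had 4.90 and 3.59 at 48 h. H2BC12 had 3806 per kilobase in AZD5153 at 24 h, while its partner H2AC12, 250 bases away, had 11.02 and was not tested. The difference within a pair was not tested.

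**Figure D4:**
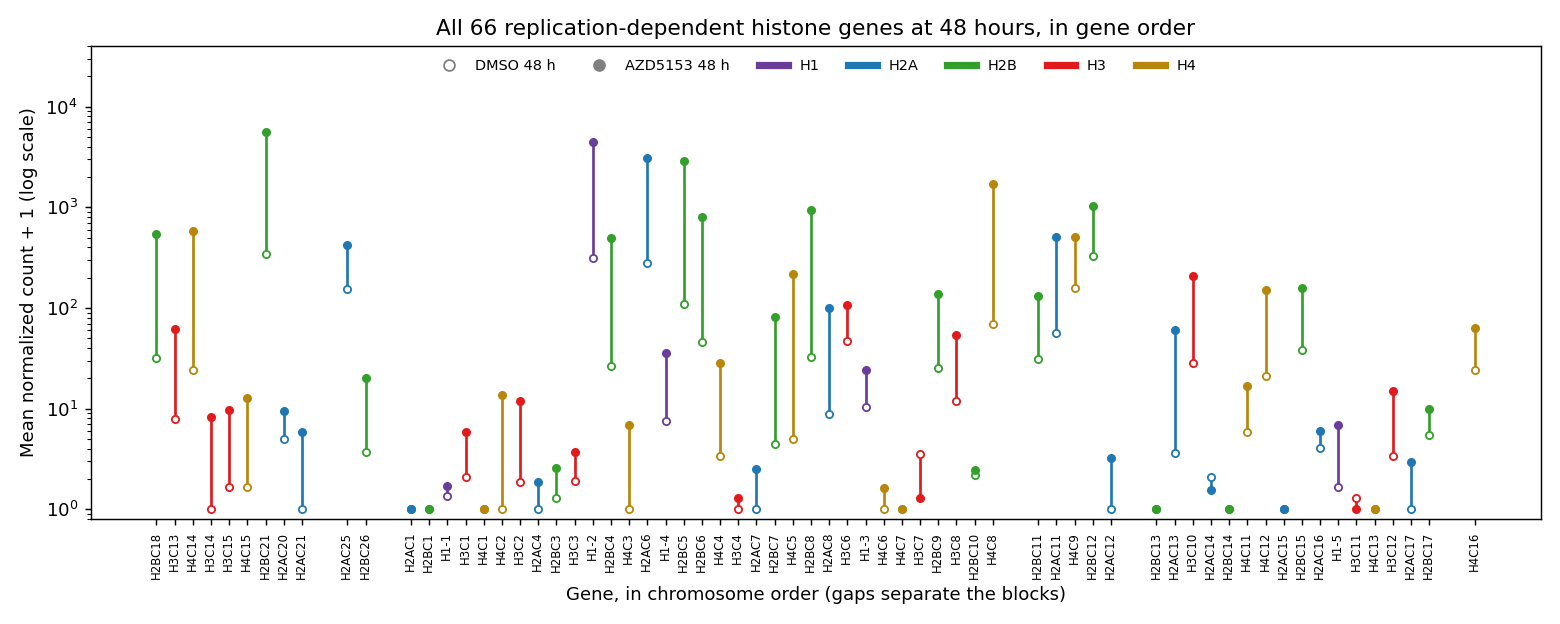
Mean normalized count plus 1 (log axis) of all 66 histone genes at 48 h in DMSO (open) and AZD5153 (filled), not corrected for length, in chromosome order with gaps between blocks and coloured by class. Genes with high and low counts stand side by side in each block that holds several genes, and H2BC21 (5617 ± 174) stands beside H2AC20 (8.55 ± 6.94).

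The AZD5153 effect differed between the times for 7 of the 33 tested histone genes, a share no higher than among all tested genes. The log2 fold change was larger at 48 than at 24 h for 2 of 33 and smaller for 5 (limma, difference of the effects), where 14.4% and 10.1% of all tested genes were called. Among the 22 genes with a mean of 10 in DMSO these numbers were 2 and 3. The larger ones were H2BC5, by 0.50 (SE 0.12, adjusted p = 0.0075), and H2AC6, by 0.33 (SE 0.09, adjusted p = 0.015). The smaller ones were H1-3 (−2.84, SE 0.81, adjusted p = 0.018), H3C6 (−2.02, SE 0.31, adjusted p = 0.00025), H1-4 (−1.43, SE 0.45, adjusted p = 0.031), H2BC18 (−1.15, SE 0.40, adjusted p = 0.044) and H2BC12 (−0.65, SE 0.12, adjusted p = 0.00086). The calls of H3C6, H2BC12, H2BC5 and H2AC6 stood whichever library was left out. That of H2BC18 was lost without any 1 of 10 libraries (values from −1.25 to −1.01, adjusted p from 0.054 to 0.11) and kept only without DMSO replicate 1 or 3 at 24 h. That of H1-4 was lost without DMSO replicate 1 at either time or without AZD5153 replicate 1 or 2 at either time (−1.43 to −1.29, adjusted p from 0.059 to 0.075). That of H1-3 was lost without AZD5153 replicate 2 at 24 h (−2.62, adjusted p = 0.053).

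Without AZD5153, time in culture moved some histone genes as well. From 24 to 48 h in DMSO 9 of 33 were higher and 2 lower, where 16.4% and 19.3% of all tested genes were called, and the median log2 change was 0.37 against 0.01 over all genes. Among the 22 genes with a mean of 10 in DMSO, 8 were higher and 2 lower, with a median of 0.44. H1-2 went up by 0.70 (SE 0.09, limma adjusted p = 1.7e-05), H2BC21 by 0.73 (adjusted p = 4.2e-06), H2AC6 by 0.49 (adjusted p = 3.3e-05) and H4C8 by 0.99 (adjusted p = 0.001). Others were H3C6 (1.58), H1-3 (2.16), H2AC25 (0.95), H2BC4 (0.63) and H2BC18 (0.98), the last of which was lost without DMSO replicate 3 at 48 h (0.84, adjusted p = 0.060). The value of H1-3 rests on 5, 1 and 0 reads at 24 h, ran from 1.58 without DMSO replicate 3 to 2.94 without DMSO replicate 1 at that time, and lost its call with only the groups compared (adjusted p = 0.061). The lower ones were H2BC11 (−0.66, adjusted p = 0.023) and H3C8 (−1.04, adjusted p = 0.034). H3C8 lost its call without DMSO replicate 1 at 24 h (−0.71, adjusted p = 0.13), DMSO replicate 1 at 48 h (−0.65, adjusted p = 0.17) or DMSO replicate 3 at 48 h (−1.09, adjusted p = 0.063). The number called lower also fell to 1 without DMSO replicate 3 at 24 h or DMSO replicate 2 at 48 h. No loss of H3C8 was found there, so the call of H2BC11 was not stable either. With only the groups compared 0 were called lower. Calls were gained without 1 library for H2BC12 (−0.27 without DMSO replicate 1 at 24 h and −0.28 without DMSO replicate 3 at 48 h), H2BC8 (0.62 without DMSO replicate 2 at 24 h and 0.69 without DMSO replicate 1 at 48 h), H4C5 (1.45) and H2AC8 (1.94) without DMSO replicate 3 at 24 h, and H3C10 (1.15) without DMSO replicate 1 at 24 h. This comparison and the difference above share their DMSO libraries with those at 24 and 48 h.

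The other 33 histone genes were close to the floor. Of these, 6 (H2AC1, H2AC15, H2BC1, H2BC14, H4C7 and H4C13) were listed at 0 in every library. NELFCD, RN7SK and RMRP, which cells in general use, were also listed at 0 throughout, so a 0 sets no limit on a gene's level here. The 33 together held 69 reads in the 3 DMSO libraries and 294 in the 3 AZD5153 libraries at 24 h, and 72 and 369 at 48 h. Summed per library this was 17.1 to 25.9 normalized counts in DMSO and 106 to 127 in AZD5153 at 24 h, and 20.4 to 28.1 and 104 to 139 at 48 h, so these sums did not overlap either. Every AZD5153 library lay above every DMSO library for 11 of the 33 at 24 h and 8 at 48 h. The shares among all tested genes were 34% and 37.5%, but those genes had reached the minimum mean and these 33 had not. The 6 genes at 0 in every library could not show this pattern. The shares are thus not comparable, and whether the pattern was more frequent among these 33 was not tested. Several of the replication-dependent H3 and H4 genes, such as H3C1, H3C3, H4C1 and H4C3, had means of at most 2.49 over the 12 libraries.

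Reads of near-identical copies and overlapping genes limit single values. Of the 33 tested genes, 7 shared 150-base windows of their transcripts with another gene, which was most of the windows for H4C14 (92.2%), H4C12 (89.5%) and H2AC13 (52.9%). H2BC21, H1-2, H2AC6, H2BC5, H2BC12, H4C8 and H4C9 shared 0%. The strand setting of the counting is not given in the sources used here, so a gene and one on its opposite strand may not be told apart. The model of H2BC18 overlaps FCGR1A on the opposite strand, which went from 1.82 ± 0.417 in DMSO to 298.7 ± 15.99 in AZD5153 at 24 h and from 14.8 ± 6.06 to 464 ± 22.1 at 48 h. It also overlaps ENSG00000233030 on the same strand, which went from 8.72 ± 5.51 to 673 ± 16.1 and from 22.8 ± 11.4 to 960.1 ± 36.3. H2BC5 and H2BC6 overlap ENSG00000283064 on the opposite strand, at 2.06 ± 0.245 against 61.1 ± 5.16 at 24 h, which is small beside H2BC5. H2BC4 overlaps a coding gene on the opposite strand that was lower in AZD5153, by 0.80 on the log2 scale at 24 h (adjusted p = 5.2e-06).

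The factors that make and degrade histone mRNA moved in both directions. Of 27 tested genes for histone mRNA transcription, 3′ processing and decay, 7 were higher and 16 lower at 24 h, with a median log2 fold change of −0.30, and 10 higher and 9 lower at 48 h, with a median of 0.03, where 33.9% and 33.1% of all tested genes were called higher at 24 and 48 h, 34.6% and 33.9% lower, and the median was about 0. SLBP, which binds the stem-loop, had 3468 ± 85.8 in DMSO and 2504 ± 89.5 in AZD5153 at 24 h (SD, n = 3), a log2 fold change of −0.47 (limma adjusted p = 2.6e-07). At 48 h it had 2414 ± 60.2 and 2703 ± 36.7, a change of 0.16 (adjusted p = 0.0064) that did not pass with equal library totals (−0.0083, adjusted p = 0.89) or quantile normalization (0.04, adjusted p = 0.53). NPAT, the coactivator of histone transcription, had −0.60 (adjusted p = 4.9e-05) and −0.01 (adjusted p = 0.93). LSM11, a subunit of the U7 small nuclear RNP, fell by 1.52 and 1.28 on the log2 scale (adjusted p = 1.9e-08 and 1.5e-07), whereas its partner LSM10 had 0.04 (adjusted p = 0.65) and 0.47 (adjusted p = 6.2e-05). CDK2, the kinase that activates NPAT, had the most negative value at 24 h, −1.74 (adjusted p = 5.5e-11). TUT7, which adds uridines to histone mRNA that is to be degraded, had the most positive, 0.83 (adjusted p = 1e-07). NCBP2, a subunit of the cap-binding complex, was at 0.58 and 0.62 (adjusted p = 1.5e-06 and 6.9e-07), SRRT, which works with that complex, at 0.14 and −0.02 (adjusted p = 0.055 and 0.79), and UPF1, a helicase in histone mRNA decay, at 0.30 and 0.17 (adjusted p = 0.0041 and 0.073). Without DMSO replicate 3 at 24 h SRRT was called at 24 h (0.22, adjusted p = 0.0011) and UPF1 at 48 h (adjusted p = 0.041), the latter also without DMSO replicate 1 at 24 h (adjusted p = 0.0040).

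Histone chaperones and chromatin assembly factors were mostly lower, 17 of 22 at 24 h and 12 of 22 at 48 h, with 4 and 5 higher and medians of −0.54 and −0.26, where 34.6% and 33.9% of all tested genes were called lower. CHAF1A, the large subunit of the assembly factor CAF-1, fell by 1.73 and 1.31 (adjusted p = 1.3e-11 and 3.5e-10), and SSRP1, a subunit of FACT, by 1.00 and 0.88 (adjusted p = 8.8e-11 and 4e-10). NAP1L1, a chaperone of H2A and H2B, had −0.48 and −0.27 (adjusted p = 6.7e-06 and 0.0016), and SUPT16H, the partner of SSRP1, −0.25 and 0.20 (adjusted p = 0.00091 and 0.0044). MMS22L, which helps protect replication forks, had the most negative value at 24 h (−1.86, adjusted p = 1.4e-10). CABIN1, which belongs to the HIRA complex that deposits H3.3, was higher, by 0.86 and 1.05 (adjusted p = 2e-08 and 1.8e-09). Of 10 tested genes listed as replication-independent histone genes, 5 were higher and 5 lower at 24 h, and 5 and 3 at 48 h, with medians of 0.18 and 0.42. Of all tested genes, 33.9% and 33.1% were called higher and 34.6% and 33.9% lower at the same times. H3-3B, which encodes H3.3, had 0.82 and 0.92 (adjusted p = 3.1e-11 and 8.7e-12), and MACROH2A2 had −2.32 and −2.12 (adjusted p = 2.9e-05 and 7e-05). H2AX had 0.66 (adjusted p = 0.0077) and 0.85 (adjusted p = 0.0014), but without DMSO replicate 1 at 24 h its value at 24 h was 0.29, still called higher, and the effect was larger at 48 h by 0.56 (adjusted p = 1.9e-07). H2AZ2 had −0.31 (adjusted p = 0.00012) and −0.05 (adjusted p = 0.46).

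Most genes of S phase and of G2/M were lower in AZD5153. Of 43 S phase genes 41 were lower at 24 h and the other 2 did not pass the test, and 35 lower and 3 higher at 48 h, with medians of −1.50 and −0.76. For G2/M, 51 of 53 genes were called lower and 2 higher at 24 h, and 48 lower and 3 higher at 48 h, with medians of −1.83 and −0.997. Of all tested genes, 34.6% were called lower at 24 h and 33.9% at 48 h. E2F8 had 462 ± 16.1 in DMSO and 21.5 ± 4.14 in AZD5153 at 24 h, a log2 fold change of −4.38 (limma adjusted p = 2e-12). RRM2, a subunit of ribonucleotide reductase, went from −0.85 at 24 h (adjusted p = 4.9e-10) to 0.52 at 48 h (adjusted p = 1.7e-07). MCM7 and MCM4, subunits of the replicative helicase, fell by 1.40 and 1.44 at 24 h, and the mitotic genes TOP2A and CKAP5 had −2.77 and −0.75, whereas the tubulin gene TUBB4B had 1.44 (adjusted p = 1.2e-14, 1.6e-08 and 1.6e-10). The part of the cell cycle in the histone results was not tested.

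Small RNAs that end without a poly(A) tail bear on how the libraries were made. Of 15 such RNAs listed, 8 were at 0 in every library and 3 had a mean of at least 10. Of these 3, SNORD3A reached the limit only through AZD5153. RN7SL1 went from 300.5 ± 37.8 in DMSO to 484 ± 73.2 in AZD5153 at 24 h (log2 fold change 0.68, limma adjusted p = 0.00028), SNORA73B from 71.8 ± 20.3 to 182 ± 5.59 (1.37, adjusted p = 0.00068) and SNORD3A from 0.712 ± 1.23 to 25.3 ± 9.19 (4.10, adjusted p = 2.3e-05). At 48 h the values were 0.44, 1.24 and 2.47 (adjusted p = 0.0079, 0.0015 and 0.0023). SCARNA6, under the limit and not tested, had means of 8.09 in DMSO and 3.76 in AZD5153 at 24 h, and 5.13 and 2.77 at 48 h. Among the histone genes with a mean of at least 10 in DMSO, the 14 with an annotated end over 400 bases past the stop codon had median log2 fold changes of 3.52 and 3.76 at 24 and 48 h, and the 8 that end within 100 bases of it 2.64 and 2.65, a difference that was not tested. Whether carry-over of RNA without a poly(A) tail took part in the histone results was not tested.

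**Figure D5:**
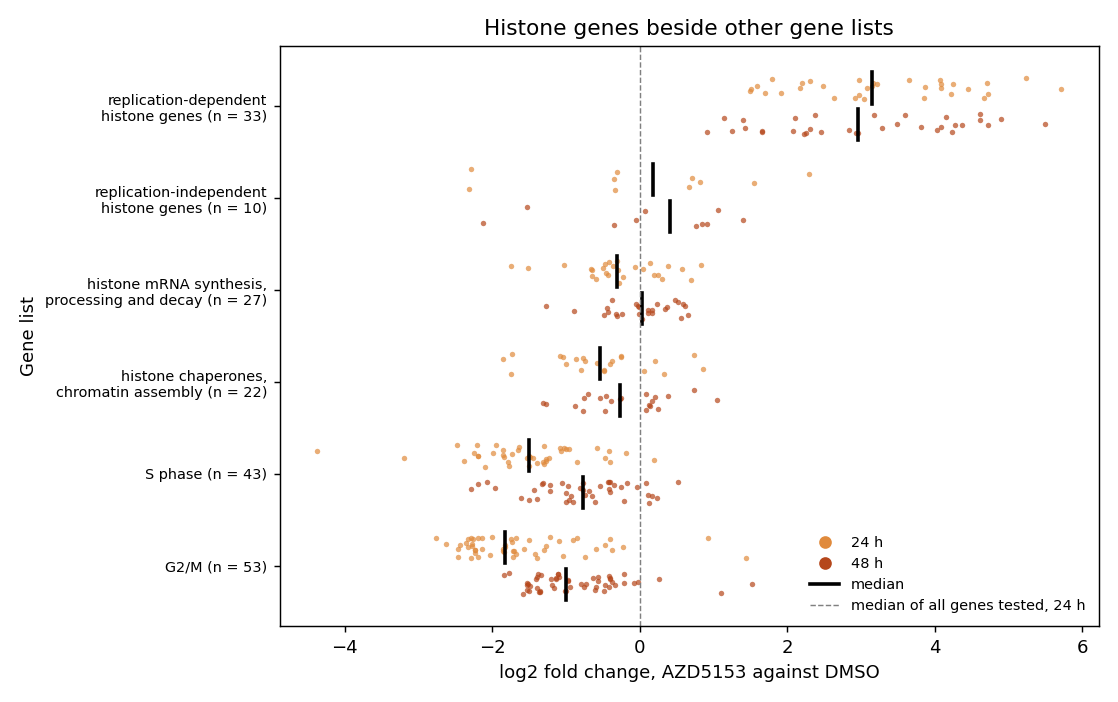
Log2 fold change of AZD5153 against DMSO at 24 and 48 h for each tested gene (points) of the histone genes and 5 other lists, with the median of each list (bars) and of all tested genes at 24 h (dashed). The medians of the replication-dependent histone genes are 3.16 and 2.97 and those of the S phase genes −1.50 and −0.76.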

How the data were processed

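RNA-Seq of SF8628 cells was analysed (4 groups of 3 libraries). The values the authors deposited are a signal, that is gene counts divided by a DESeq2 size factor per library. Total RNA was used with the NEBNext Ultra II kit and paired-end reads. The submitters' processing notes name STAR, HTSeq, DESeq2 and hg38. Versions, annotation and strand setting are not given in the sources used here. The authors also deposited log2 fold changes and their p-values, which were not used. In every library 100% of values were whole multiples of 1 step (tolerance 0.02), so reads were recovered. Replicates differed by more than sampling noise (chi-square per degree of freedom 2.09 to 22.9). CUT&RUN samples were not analysed here, and some results for genes of the lists are not reported here.

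The histone genes and gene lists were chosen with earlier results of these data known. Genes with a mean of at least 10 (15599) were fitted with limma 3.58.1 (lmFit, eBayes with a trend, Benjamini-Hochberg at 0.05) on log2(normalized count + 1), with the 4 groups in 1 fit and no block. The added 1 understates the fold changes of low genes. Class sums were not tested. Named genes were the 3 with the highest mean per class and those with the extreme log2 fold changes at each time, plus the genes next to the limit. For the other lists they were the 3 with the highest mean and the most positive and most negative called value at 24 h. SLBP, NPAT, LSM10, LSM11, CHAF1A, H2BC4, H2BC6, H2BC7, H2BC9, H2BC11, H2AC12 and genes that overlap a histone gene were named after their values were seen. Cell cycle lists are those of Seurat 5.3.0. Gene models were GENCODE 44 on GRCh38, and promoters were from RefSeq on GRCh38.p14. On simulated counts with 200 genes changed by 1 on the log2 scale at 24 h, limma recovered 173 of the 196 tested (88.3%, 15486 genes). Alternatives covered the pseudocount (0.5 and 10), minimum mean (none and 100), scaling, replicate block, fit, edgeR 4.0.16 and DESeq2 1.42.0 on the recovered reads, a minimum log2 fold change of 1, leaving out each library and, for sums, leaving out low genes or the gene with the highest mean. R 4.3.3, Python 3.11.15, pandas 2.3.3 and matplotlib 3.10.9 were used.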

Additional observations from a re-analysis of the deposited data

Results flagged for a closer look

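The AZD5153 effect differed between 48 and 24 h, by the test of the difference in limma, for 7 of 33 tested histone genes and 14 genes of the other lists that the text names, where 14.4% of all tested genes were called larger and 10.1% smaller at 48 h. Among histone genes the log2 fold change at 48 h minus that at 24 h was −2.84 for H1-3, −2.02 for H3C6, −1.43 for H1-4, −1.15 for H2BC18 and −0.65 for H2BC12, and it was 0.50 for H2BC5 and 0.33 for H2AC6. H1-3 and H1-4 reached the minimum mean only through AZD5153, and among the 22 histone genes with a mean of 10 in DMSO the effect was smaller at 48 h for 3 and larger for 2. The 7 histone genes thus went both ways, and their share of the 33 was no higher than the share called among all tested genes. In the 14 other genes the effect was less negative or more positive at 48 h. E2F8, TOP2A, MMS22L and CDK2 were named for the most negative value of their list at 24 h, which favours this direction. SLBP, NPAT, LSM10 and CHAF1A were named after their values were seen. The shared direction of the 14 is thus only a description. The difference was 2.08 for E2F8, 1.43 for TOP2A, 1.37 for RRM2, 1.10 for MMS22L, 0.85 for CDK2, 0.76 for MCM4, 0.63 for SLBP, 0.59 for NPAT, 0.54 for CKAP5, 0.45 for SUPT16H, 0.43 for LSM10, 0.42 for CHAF1A, 0.39 for MCM7 and 0.26 for H2AZ2. That of H2AZ2 did not pass without AZD5153 replicate 2 at 24 h (0.25, adjusted p = 0.053) or, at 48 h, without DMSO replicate 1 (0.26, adjusted p = 0.051) or 2 (0.24, adjusted p = 0.063) or AZD5153 replicate 1 (0.21, adjusted p = 0.068) or 3 (0.26, adjusted p = 0.051).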

How the results depend on the processing

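The number of histone genes called higher with AZD5153 kept its direction in every alternative, with 0 lower. At 24 h it was 33 (32 to 33 when each library was left out) and at 48 h 31 (30 to 32). A minimum mean of 100 left 15 genes, and 15 were higher at each time. Without a minimum mean 41 and 39 of 60 were called. The number with a smaller effect at 48 h, 5, was 3 with no minimum mean, 2 with a minimum mean of 100, 3 with quantile normalization, 3 with a mean of 10 in DMSO alone (chosen after seeing the data) and 2 to 5 when each library was left out, with the lowest value without AZD5153 replicate 2 at 24 h. The number lower from 24 to 48 h in DMSO, 2, was 1 with no minimum mean, 4 with quantile normalization, 0 with only the groups compared (limma, with 1 at an unadjusted p under 0.05), 1 with eBayes without a trend, 1 in edgeR and 1 to 2 when each library was left out. With a minimum log2 fold change of 1, 0 had a larger effect at 48 h, and in DMSO 2 were higher and 1 lower. The cause of these shifts was not tested.

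Class sums stayed higher in AZD5153 under every scaling, with these log2 ratios at 24 and 48 h where they moved beyond the replicate spread. With equal library totals H1 had 3.59 at 48 h, H2A 2.76 and 2.89, H2B 3.37 and 3.49, H4 3.25 at 48 h, chromosome 6 3.08 and 3.26, chromosome 1 3.69 and 3.50, and all genes 3.21 and 3.31. With quantile normalization H1 had 3.86, H2A 3.24, H3 2.62, H4 3.68 and chromosome 1 3.82 at 48 h, H2B 3.53 and 3.81, chromosome 6 3.27 and 3.61, and all genes 3.40 and 3.66. With the 7 stably expressed genes, H2B had 3.44, chromosome 6 3.16 and all genes 3.29 at 24 h. Without the gene with the highest mean, H1 had 1.93 and H3 1.87 at 48 h, H2A 2.42 and 2.28, H2B 3.24 and 3.43, H4 2.44 and 2.75, chromosome 6 3.07 and 3.32, chromosome 1 3.31 and 2.89, and all genes 3.20 and 3.36. A replicate block gave 33 and 31 higher, 2 larger and 5 smaller at 48 h, and 9 higher and 2 lower in DMSO, where H3C8 lost its call (adjusted p = 0.051) and H2BC12 gained one (adjusted p = 0.042). Libraries sharing a number did not deviate together (18 pairs, correlation from −0.151 to 0.0363). With equal library totals SLBP at 48 h went from 0.16 to −0.0083 (adjusted p = 0.89). Low reads in DMSO limit H1-3, H4C5 and H2AC20.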
